A study of Mus musculus with 5 samples.

Results

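The genes described here encode 10 cytokines that dendritic cells are known to make or to respond to: Il12a, Il12b, Il23a, Il6, Il1b, Il18, Tnf, Il15, Il10 and Tgfb1. They were chosen by name, and their data are the windows of a PU.1 ChIP-seq count table that lie in each gene's span or within 20 kb on either side, in mouse genome build mm10. Each gene with these flanks is called its locus. The 10 loci held 392 of the 329996 windows of the table, and 63 of its 60527 sites, a site being a run of tested windows at most 100 bp apart.

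PU.1 was precipitated from conventional dendritic cells (cDCs) and from plasmacytoid dendritic cells (pDCs), both grown in Flt3L culture from mice of a strain labelled C56BL/6, with antibody T-20 and 2 biological replicates per cell type. The 1 input library was chromatin of cDCs with no antibody, and it served both cell types. The labels name no stimulus, genotype or age, and they do not say which cDC subsets the culture held. The design sets PU.1 occupancy in pDCs against that in cDCs. In bulk chromatin, fewer cells with PU.1 at a site and less PU.1 there per cell cannot be told apart.

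PU.1, encoded by Spi1, is an ETS-family transcription factor of blood cells that binds DNA through a GGAA core and is known to mark myeloid enhancers. cDCs present antigen to T cells and steer them by cytokines such as IL-12, whereas pDCs are known for type I interferon. Many of these cytokine genes are known to be transcribed strongly only after microbial sensing, at enhancers that lineage factors such as PU.1 already occupy in resting cells.

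Window totals of the 4 PU.1 libraries ranged from 6896416 to 11388554 counts, and the input held 2776490. These are sums over overlapping read placements and not sequencing depth. Signal at marker loci, which is not expression, was checked by the same test, in which 11.0% of all gene loci were higher in pDCs and 7.87% in cDCs. The counts over these short lists are to be read beside those shares. Of 8 cDC marker loci, 2 were higher in cDCs (Zfp366 and H2-Ab1) and 1 in pDCs (Sirpa), and of 8 pDC marker loci 3 were higher in pDCs (Siglech, Bst2 and Spib). On the pDC side were also 2 of 6 B cell marker loci, Pax5 and Ebf1, and 1 of 8 macrophage, monocyte and neutrophil loci, Ly6g. Pax5 held 50.4 and 54.0 CPM in cDCs versus 111 and 98.6 in pDCs, and its part in the values below was not tested. Of 4 T and NK cell loci and 2 measured erythroid loci edgeR called 0, with 0 and 0 at an unadjusted p below 0.05 and 0 and 0 by DESeq2.

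Stretches before the gene starts are shown for 4 genes where PU.1 sites reached them. A site also reached the Il18 stretch, which holds 1 GGAA core and is not shown. The Il18 window at -45, at that core, held 27 and 28 counts in cDCs, 21 and 18 in pDCs and 2 in the input. RefSeq promoters (build GRCm38.p6, the coordinates of mm10) were on hand for 7 of the 10 genes, and in 5 of these a tested window overlapped the promoter, against 25% of 17492 protein-coding genes. The 4 below are the 250 bases before the start of Il1b, Tnf, Il12b and Il6, written 5′ to 3′ along the gene, with every GGAA or its complement TTCC in capitals.
Il1b, chr2:129371140-129371389, minus strand: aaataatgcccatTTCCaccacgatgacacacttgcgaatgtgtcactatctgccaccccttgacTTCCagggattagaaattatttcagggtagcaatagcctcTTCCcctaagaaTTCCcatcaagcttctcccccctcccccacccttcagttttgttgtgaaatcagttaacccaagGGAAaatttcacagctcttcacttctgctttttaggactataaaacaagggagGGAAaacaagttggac
Tnf, chr17:35202008-35202257, minus strand: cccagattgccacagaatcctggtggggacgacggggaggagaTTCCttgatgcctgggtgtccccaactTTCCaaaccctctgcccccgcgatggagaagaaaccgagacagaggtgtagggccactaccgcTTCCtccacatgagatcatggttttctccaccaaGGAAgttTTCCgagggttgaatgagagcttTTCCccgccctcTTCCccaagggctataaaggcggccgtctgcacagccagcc
Il12b, chr11:44399813-44400062, plus strand: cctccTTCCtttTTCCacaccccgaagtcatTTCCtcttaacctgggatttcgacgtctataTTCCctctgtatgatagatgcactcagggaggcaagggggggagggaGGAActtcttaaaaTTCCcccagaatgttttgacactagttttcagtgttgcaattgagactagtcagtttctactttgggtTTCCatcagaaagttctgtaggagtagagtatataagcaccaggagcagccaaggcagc
Il6, chr5:30012864-30013113, plus strand: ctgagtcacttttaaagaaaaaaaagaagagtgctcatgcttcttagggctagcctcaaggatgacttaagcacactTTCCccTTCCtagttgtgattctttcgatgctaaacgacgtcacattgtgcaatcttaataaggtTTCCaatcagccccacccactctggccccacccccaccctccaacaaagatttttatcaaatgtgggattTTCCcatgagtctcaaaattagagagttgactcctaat
The GGAA core stood in 6 places in the Il1b stretch, 7 in Tnf, 7 in Il12b and 4 in Il6, and 93.2% of 21263 such stretches before protein-coding genes hold it at least 1 time, so its presence says little by itself. The longer motif GAGGAA, which contains the core, is known to be favoured by PU.1. It was found on either strand in Il12b, at -219 and -143 from the start, and in Tnf, at -117, and in 22.2% of all stretches. The ETS-IRF composite element, searched on both strands, which ETS and interferon regulatory factors can bind together, was in 0 of the 8 stretches of these genes and in 2.16% of all.

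Read counts in those stretches were modest. In the Il1b stretch the window at -66, 2 bp from a GGAA core, held 58 and 72 counts in cDC replicates 1 and 2, 16 and 41 in pDC replicates 1 and 2, and 3 in the input. Scaled to each library's adjusted total over tested windows, these were 5.30 and 6.22 CPM in cDCs and 2.11 and 6.60 in pDCs. The groups thus overlapped, with pDC replicate 2 highest and pDC replicate 1 lowest. At Tnf the window at -98 held 33 and 51 counts in cDCs, 26 and 15 in pDCs and 1 in the input, and the scaled groups overlapped there too (3.02 and 4.41 CPM in cDCs, 3.43 and 2.41 in pDCs). At Il12b the window at -208, 10 bp from a core, held 22 and 22 counts in cDCs, 1 and 7 in pDCs and 4 in the input, or 2.01 and 1.90 CPM in cDCs and 0.132 and 1.13 in pDCs, groups that did not overlap. None of these 3 promoter sites was called different between the cell types (edgeR adjusted p = 0.548 for Il1b, 0.807 for Tnf and 0.113 for Il12b). By the comparison with input described below, those of Il1b and Il12b passed as above input in neither cell type. That of Tnf passed in cDCs alone, and the sites reaching the Il6 and Il18 stretches passed in both cell types.

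Summed over whole loci, PU.1 signal was lower in pDCs at Il1b, Il6 and Il12b and higher in pDCs at Il12a, while Il23a, Il18, Tnf, Il15, Il10 and Tgfb1 were not called. That makes 4 of 10 loci called by edgeR's quasi-likelihood test (Benjamini-Hochberg adjusted over all 16240 gene loci, threshold 0.05), beside 18.9% of all gene loci. By direction 3 were higher in cDCs (7.87% of all loci) and 1 in pDCs (11.0% of all). The groups did not overlap at these 4 loci and overlapped at the other 6, where 59.9% of all loci have groups that do not overlap. The median log2 fold, pDC minus cDC, was 0.04 over the 10 loci and 0.05 over all loci. With 10 genes chosen by name, these counts describe the list and are not a test of it. The calls rested on few libraries, and none of the 4 held in every fit without 1 library. Log2 folds over those fits ran from 0.47 to 1.02 at Il12a and from -0.74 to -0.58 at Il12b. At Il6 they ran from -0.83 to -0.37 and at Il1b from -0.93 to -0.44. Against a minimum fold of 1.5, 0 of the 10 were called, beside 3.44% of all loci. With library sizes set by 146 repeat windows 0 were called, beside 0.591% of all loci. On gene spans alone edgeR called 0, beside 15.4% of all loci, with log2 folds of -0.49 at Il6 and -0.58 at Il1b.

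**Figure D1:**
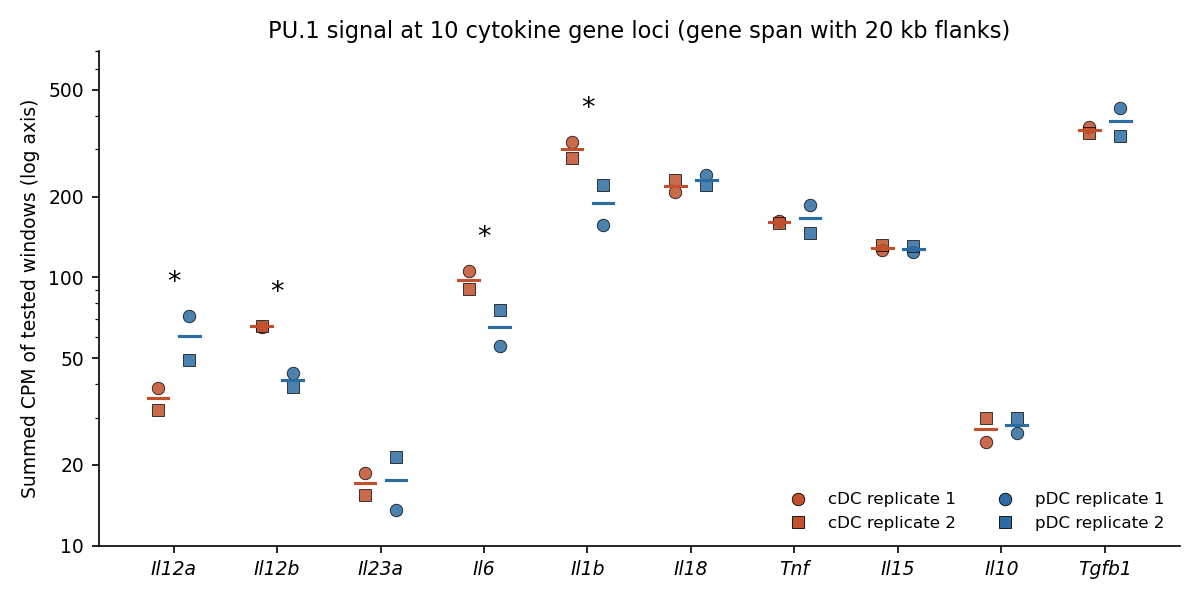
Summed CPM of the tested windows in each locus (log axis), 1 point per library and a line for each group's mean, n = 2 libraries per cell type. An asterisk marks the 4 loci called by edgeR: Il12a lies higher in pDCs, and Il12b, Il6 and Il1b lie higher in cDCs.

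The loci differed far more from each other than between cell types. Per kb of locus, the mean signal was 6.35 CPM at Tgfb1, 5.24 at Il1b, 3.84 at Tnf and 3.35 at Il18, levels above those of 99.8%, 99.4%, 97.5% and 96.1% of all gene loci. Il6 followed with 1.75 CPM per kb, then Il15 with 1.15, Il12a with 1.00, Il12b with 0.982, Il10 with 0.612 and Il23a with 0.412. The last of these lay above 38.3% of loci and Il10 above 50.3%, near the middle of the 16240 gene loci that held a tested window. Genes without a tested window were not ranked. Il12a and Il12b were level with each other in this order, and the libraries of neighbours were not tested against each other. All tested windows of the Il18, Tnf, Tgfb1 and Il23a loci also lie in the locus of another protein-coding gene, and 29.8%, 28.6%, 40.7% and 25% of them have the named gene as their nearest. At Il12a, Il12b, Il1b, Il10 and Il15 every tested window belongs to that locus alone.

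Across the 63 sites the median width was 210 bp, as over all 60527 sites, and the median height, the mean CPM at the highest window, was 3.41 against 2.08 over all. Of the highest windows 12 lay inside the span of the named gene, 38 lay outside every protein-coding gene span, and 42.9% of the sites overlapped some span, against 56.9% of all sites. In cDCs 25 of 63 sites passed as above input (edgeR adjusted p below 0.05 and at least 2-fold, 31.5% of all sites), and in pDCs 21 did (28.4% of all). Counts of the input at the highest windows lay between 0 and 5, and 146 repeat windows took 74.6% of the input total. Among the PU.1 libraries their share was largest in pDC replicate 2, at 18%. It was 10.1% in pDC replicate 1 and 9.15% in cDC replicate 2, and cDC replicate 1 lay near these lower values. With scaling to the repeat windows, 63 and 57 passed, beside 97.4% and 91.4% of all sites, so these 2 counts follow the scaling to the input. Between the cell types 9 of 63 sites were called, beside 14.5% of all sites. Of these 6 were higher in cDCs (6.00% of all) and 3 in pDCs (8.46% of all). DESeq2 called 1 of them (3.11% of all sites), as did a minimum fold of 1.5 (6.97% of all), and in both cases it was the site just downstream of Il12b. Of the called sites, only that one kept its call in every fit without 1 library, as given gene by gene below. With scaling to the repeat windows, calls ended at the site 7.20 kb downstream of Il12a (1.39), 9.84 kb upstream of Il1b (-2.03), beyond Il15 (-1.57) and at both Tnf sites (0.85 and 1.37).

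**Figure D2:**
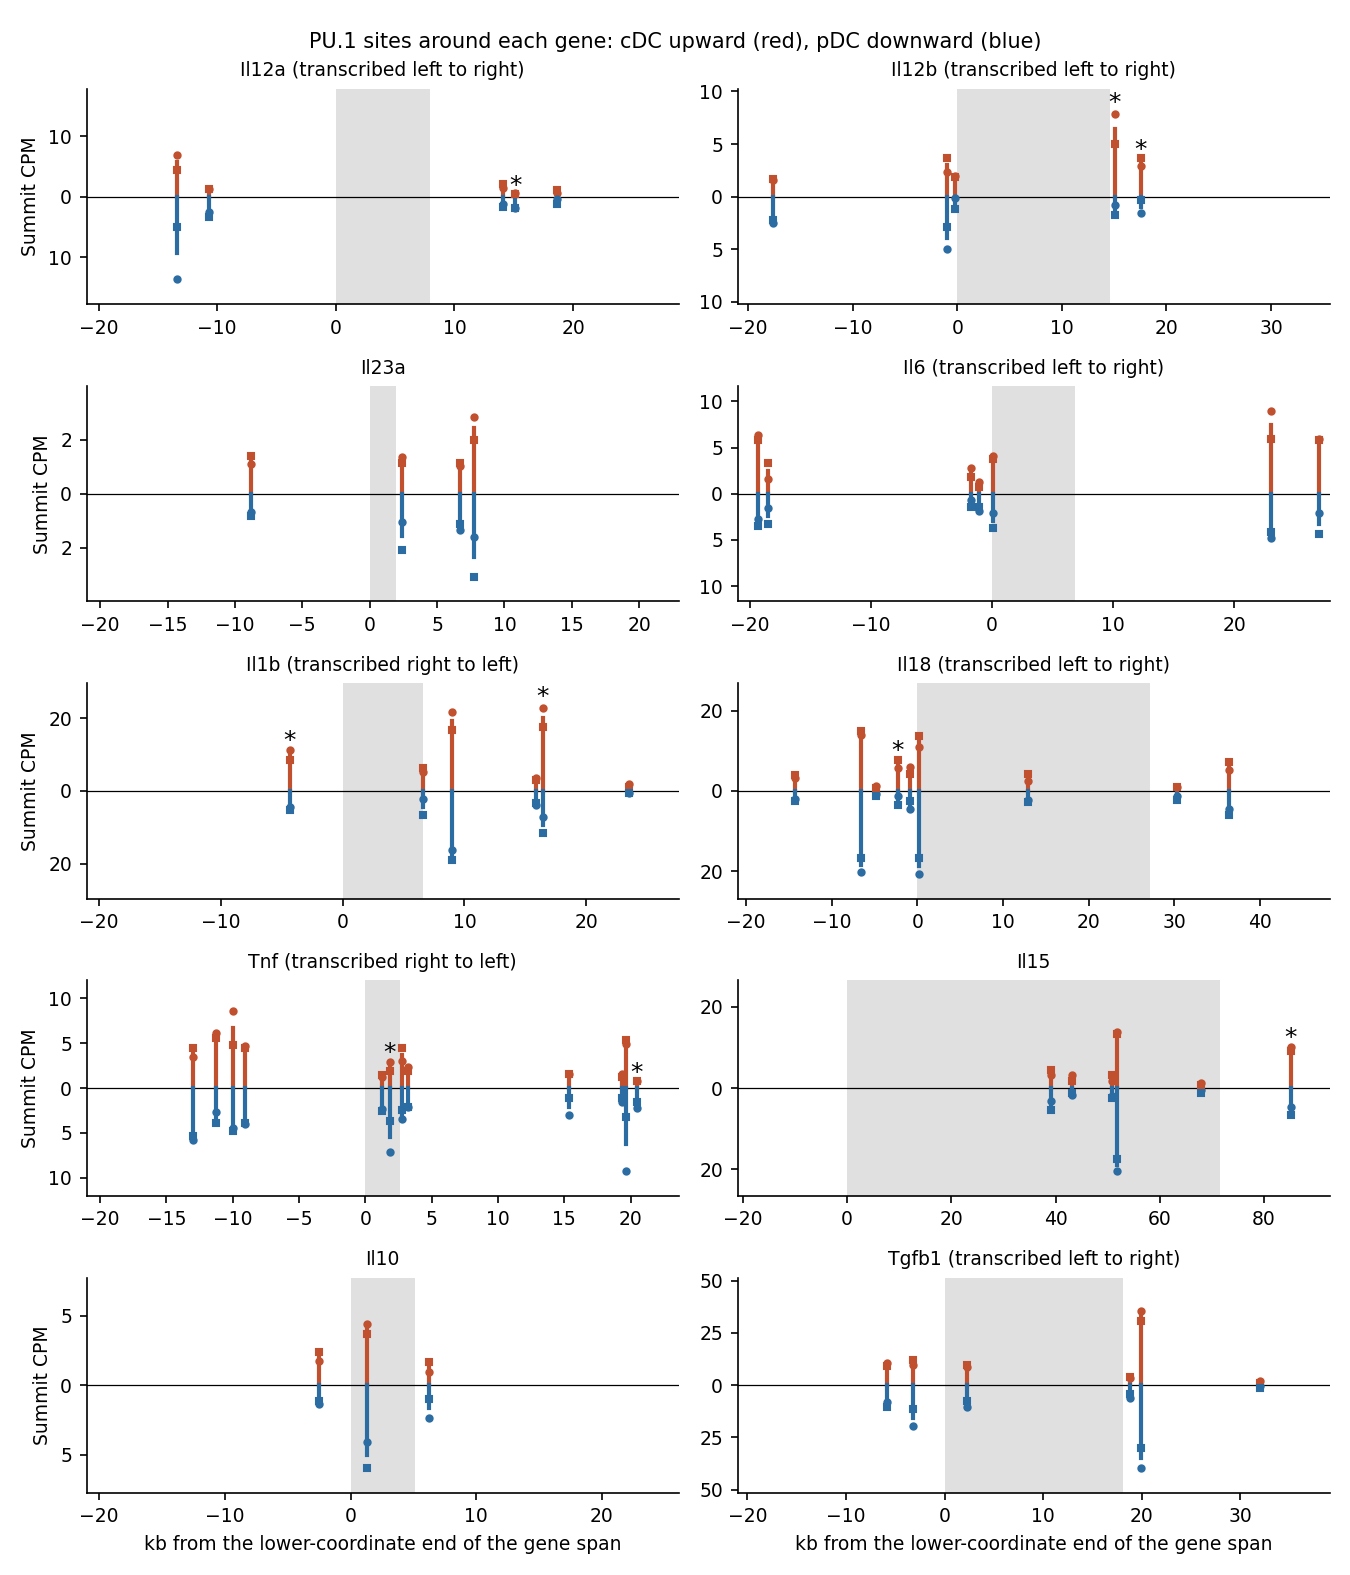
Height of each site in CPM at its highest window, cDC upward and pDC downward, against the distance in kb from the lower-coordinate end of the gene span (grey), where bars are means of 2 libraries and points single libraries (circles replicate 1, squares replicate 2). Asterisks mark the 9 sites called different, of which 2 each lie at Il12b, Il1b and Tnf and 1 each at Il12a, Il18 and Il15.

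IL-12 is a dimer of a subunit encoded by Il12a and a subunit encoded by Il12b, and it directs T helper cells towards interferon-gamma production. At Il12b (gene ID 16160, chromosome 11, 44400063 to 44414677) the locus held 65.4 and 65.9 CPM in cDCs and 43.9 and 39.2 CPM in pDCs. Both cDC libraries lay above both pDC libraries, and the locus was 1.58-fold higher in cDCs (log2 fold -0.66 ± 0.18 SE, n = 2 per cell type, edgeR adjusted p = 0.0161). The difference was not spread over the locus. A site 0.428 kb downstream of the gene (44415001 to 44415210) had at its highest window 7.87 and 5.01 CPM in cDCs versus 0.791 and 1.77 in pDCs, from 86, 58, 6 and 11 counts and 2 input counts. That is a log2 fold of -2.36 ± 0.40 by edgeR (adjusted p = 0.000853), and this site was called in each fit without 1 library, at log2 folds between -3.00 (without pDC replicate 2) and -1.85 (without pDC replicate 1). It passed as above input in cDCs and not in pDCs. A second site, 2.93 kb downstream (44417501 to 44417760), lay at -2.03 ± 0.50 (edgeR adjusted p = 0.0222), the levels being 2.84 and 3.71 CPM in cDCs versus 1.19 and 0.322 in pDCs. This second site passed as above input in neither cell type. Together the 2 downstream sites held 60.6% and 52.3% of the summed site signal of Il12b in the cDC libraries, and 19.5% and 24.5% in the pDC libraries. Since these 2 were picked by their calls, a larger share in cDCs follows from that choice. On the upstream side, a site 1.01 kb before the gene had 2.38 and 3.63 CPM in cDCs versus 5.01 and 2.90 in pDCs. Those are values of its highest window, where the groups overlapped (log2 fold 0.41 ± 0.35). At its window of smallest p the log2 fold was 0.74 ± 0.40, with 1.65 and 1.81 CPM in cDCs versus 2.90 and 2.90 in pDCs. The site was not called (edgeR adjusted p = 0.549). The locus call ended without cDC replicate 1 (-0.67) and without cDC replicate 2 (-0.65), and so did that of the second downstream site without cDC replicate 2 (-1.83) and without pDC replicate 2 (-1.46), while it lay at -3.30 without pDC replicate 1. No tested window lay inside the Il12b span.

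Il12a (gene ID 16159, chromosome 3, 68690644 to 68698550) went the other way. Its locus held 38.7 and 32.0 CPM in cDCs and 72.0 and 49.1 CPM in pDCs, 1.72-fold more in pDCs (log2 fold 0.78 ± 0.21, edgeR adjusted p = 0.0165). The groups did not overlap, but the pDC libraries differed from each other by more than pDC replicate 2 differed from the cDC libraries. Most of the signal sat in a site 13.4 kb upstream (68677051 to 68677410), whose highest window had 6.95 and 4.41 CPM in cDCs versus 13.7 and 4.99 in pDCs. This site supplied 73.8% and 61.2% of the summed site signal in cDCs and 80.0% and 53.8% in pDCs, and it was not called (edgeR adjusted p = 0.0837), except without pDC replicate 2 (log2 fold 1.27). The called site was a weak one 7.20 kb downstream (68705701 to 68705760), with 4 and 6 counts in cDCs, 10 and 15 in pDCs and a log2 fold of 2.01 ± 0.59 by edgeR (adjusted p = 0.0236), and in neither cell type did it pass as above input. The locus call ended without cDC replicate 1 (0.91), cDC replicate 2 (0.65) or pDC replicate 1 (0.47), with library-size scaling (0.66), with windows under a mean of 30 counts removed (0.68) and with flanks of 10 kb (0.35). The call of the weak site ended without cDC replicate 1 (1.83), cDC replicate 2 (2.28) or pDC replicate 2 (1.77). No tested window lay inside the Il12a span or in the stretches before either of its 2 RefSeq starts.

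Il23a (gene ID 83430, chromosome 10, 128296140 to 128298084) encodes the subunit that pairs with the product of Il12b to form IL-23, a cytokine that sustains T cells making IL-17. It had the least signal of the 10 genes, 18.7 and 15.5 CPM in cDCs versus 13.6 and 21.4 in pDCs. The groups overlapped (log2 fold 0.03 ± 0.30, edgeR adjusted p = 0.965). Of its 4 sites edgeR called 0, with 0 at an unadjusted p below 0.05 and 0 by DESeq2, and none passed as above input in either cell type. The highest of them lay 5.77 kb from the gene inside the span of Pan2, and another inside that of Stat2.

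Il6 (gene ID 16193, chromosome 5, 30013114 to 30019975) encodes a cytokine of the acute phase response and of B and T cell help. The locus held 106 and 90.8 CPM in cDCs versus 55.4 and 75.8 in pDCs, 1.5-fold more in cDCs, and the groups did not overlap (log2 fold -0.59 ± 0.17, edgeR adjusted p = 0.0254). Of 7 sites edgeR called 0, with 3 at an unadjusted p below 0.05 and 0 by DESeq2, while 6 of the 7 had a log2 fold below 0. The site at the gene start (30013101 to 30013360), which reaches into the stretch printed above, had 4.12 and 3.71 CPM in cDCs versus 2.11 and 3.70 in pDCs at its highest window. There pDC replicate 2 lay level with the cDC libraries and pDC replicate 1 below them. The highest site lay 16.1 kb downstream (30036001 to 30036360), with 8.96 and 5.96 CPM in cDCs and 4.75 and 4.18 CPM in pDCs. The site 19.4 kb upstream (29993651 to 29993910) had the smallest p, with 6.40 and 5.87 CPM in cDCs versus 2.77 and 3.54 in pDCs (log2 fold -0.97 ± 0.31, edgeR adjusted p = 0.0787). That site was called with library-size scaling (-1.09), with windows under a mean of 30 counts removed (-0.99) and without pDC replicate 2 (-1.45). The locus call ended without cDC replicate 1 (-0.48) and cDC replicate 2 (-0.69), with flanks of 10 kb (-0.46) and by nearest gene (-0.55). Of its tested windows 27.3% are shared with another gene's locus.

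Il1b (gene ID 16176, chromosome 2, 129364569 to 129371164) encodes an inflammatory cytokine that is made as a precursor and cut by caspase-1. Its locus held 321 and 278 CPM in cDCs versus 157 and 221 in pDCs. All values of cDCs lay above those of pDCs, with a 1.59-fold difference (log2 fold -0.67 ± 0.15, edgeR adjusted p = 0.00477), the smallest p of the 10 loci. A broad site 9.84 kb upstream (129380801 to 129381360, 560 bp) reached 22.8 and 17.5 CPM in cDCs versus 7.25 and 11.6 in pDCs at its highest window. At the window of smallest p its log2 fold was -1.35 ± 0.27 (edgeR adjusted p = 0.00383), with 14.4 and 10.8 CPM against 5.27 and 4.5 CPM. A site 4.31 kb downstream (129360051 to 129360460) lay at -1.28 ± 0.29 (edgeR adjusted p = 0.00984), the levels being 10.6 and 8.21 CPM in cDCs versus 3.30 and 4.5 in pDCs. Between them, 2.39 kb upstream, stood a site of similar height in both cell types (129373301 to 129373710), with 21.6 and 16.8 CPM in cDCs versus 16.4 and 19 in pDCs. The groups overlapped there, and the site was not called (edgeR adjusted p = 0.0987 at a log2 fold of -0.88 ± 0.27 on its flank, and -0.12 ± 0.23 at its highest window). The 3 sites passed as above input in both cell types. The called pair held 56.2% and 53.7% of the summed site signal in cDCs and 38.4% and 39.3% in pDCs. Since the pair was picked by its calls, a larger share in cDCs follows from that choice. The calls of the locus (-0.56), of the upstream site (-1.33) and of the downstream site (-1.82) ended without cDC replicate 1. Without pDC replicate 2 the upstream site lay at -2.94, and the site 2.39 kb upstream was called (-1.22).

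**Figure D3:**
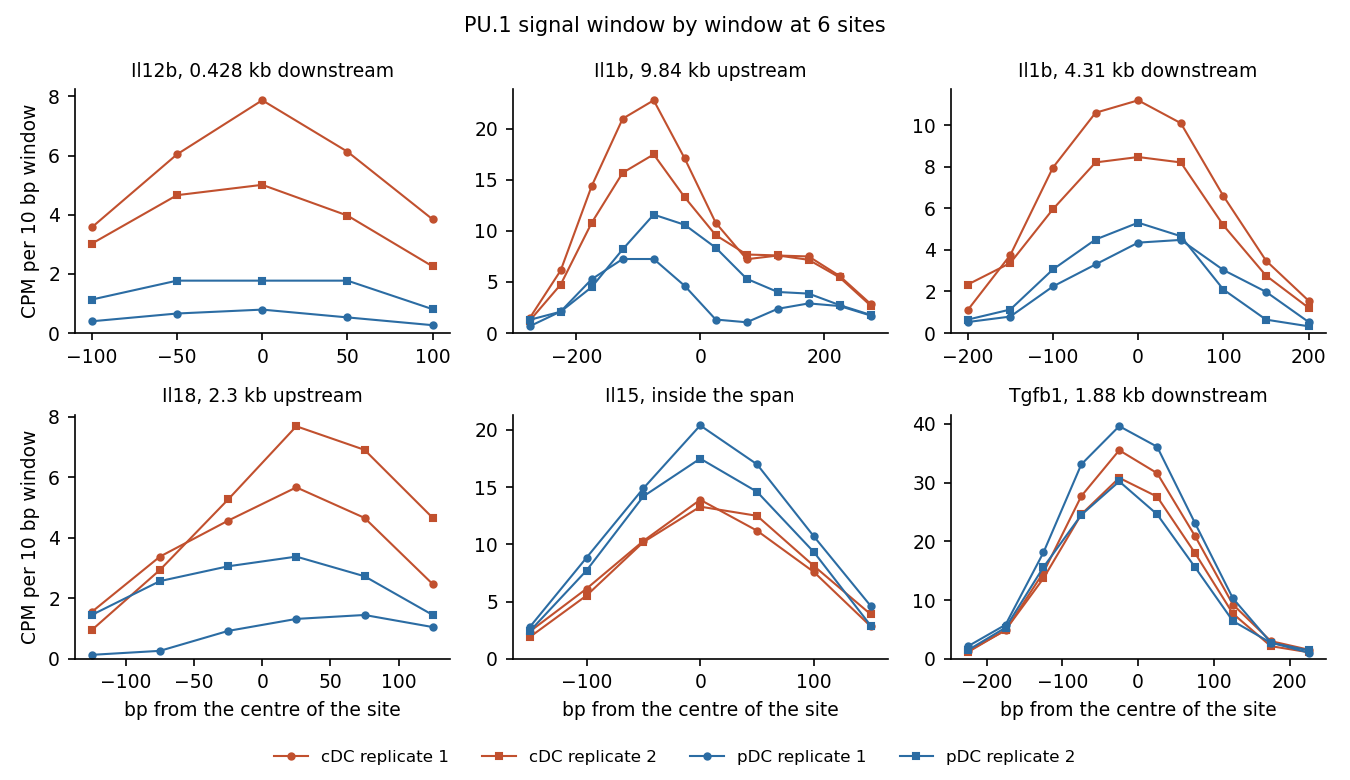
CPM of each 10 bp window against the distance in bp from the centre of the site, 1 line per library, at 6 sites. The cDC lines lie above both pDC lines at the centres of the Il12b, Il1b and Il18 sites, whereas at Il15 the pDC lines are the higher ones (17.5 and 20.4 against 13.3 and 13.9 CPM) and at Tgfb1 the groups overlap (30.2 and 39.6 against 30.8 and 35.5 CPM).

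Likeness to Il1b was measured as the Euclidean distance of log2 CPM over the 4 PU.1 libraries, among loci that do not overlap it. The nearest were Hps3 at 0.243, Hfe at 0.244 and H4c3 at 0.257. With 4 libraries, such a match says that the levels are alike and nothing more.

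Il18 (gene ID 16173, chromosome 9, 50554700 to 50581841), the other caspase-1 substrate among the 10 genes, encodes an inducer of interferon-gamma. The locus as a whole was level, with 209 and 230 CPM in cDCs and 240 and 221 CPM in pDCs (log2 fold 0.07 ± 0.12, edgeR adjusted p = 0.741), yet its sites went in both directions. A site 2.30 kb upstream, inside the span of Bco2 (50552251 to 50552510), had 5.67 and 7.69 CPM in cDCs versus 1.32 and 3.38 in pDCs, from 62, 89, 10 and 21 counts. It was called higher in cDCs (log2 fold -1.55 ± 0.36, edgeR adjusted p = 0.0135). The site at the gene start (50554601 to 50555060) reached 10.9 and 13.6 CPM in cDCs versus 20.6 and 16.7 in pDCs at its highest window. The groups did not overlap there (0.61 ± 0.23). The site missed the threshold (edgeR adjusted p = 0.0670), with 0.85 ± 0.24 at its window of smallest p. The site 6.60 kb upstream (50547901 to 50548260) had 14.0 and 14.9 CPM in cDCs and 20.2 and 16.7 CPM in pDCs at its highest window. It was not called (0.42 ± 0.22 at its window of smallest p, edgeR adjusted p = 0.715). With windows assigned to the nearest gene, and to each gene where spans overlap, Il18 was called higher in pDCs (0.50, edgeR adjusted p = 0.0440). The highest window of the gene-start site also lies in the span of Bco2 and so counts for both genes. The call of the site 2.30 kb upstream ended without cDC replicate 2 (-1.30) and without pDC replicate 1 (-1.08), and without pDC replicate 2 it lay at -2.34.

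Tnf (gene ID 21926, chromosome 17, 35199367 to 35202007), a cytokine of early inflammation, lies between the lymphotoxin genes Lta and Ltb, so its locus takes in their signal too. It held the most sites, 12, and the sum was level between the cell types, with 163 and 160 CPM in cDCs versus 186 and 147 in pDCs (log2 fold 0.05 ± 0.14, edgeR adjusted p = 0.852). Of 2 sites inside the gene, the one 0.802 kb from its start (35201101 to 35201310) had 2.93 and 1.90 CPM in cDCs versus 7.12 and 3.70 in pDCs. It was called higher in pDCs (1.19 ± 0.36), just inside the threshold (edgeR adjusted p = 0.0493). A weak site 17.8 kb upstream (35219851 to 35219910) was also called (1.90 ± 0.53, edgeR adjusted p = 0.0252), on 6 and 6 counts in cDCs against 17 and 11 in pDCs. In neither cell type did this weak site pass as above input. On the downstream side, a site in the span of Lst1 (35188001 to 35188310) had 6.13 and 5.53 CPM in cDCs versus 2.64 and 3.86 in pDCs at its highest window (-0.86 ± 0.32). It was not called (-1.89 ± 0.53 at its window of smallest p, which lies on its flank, edgeR adjusted p = 0.0647). The highest site, 17.0 kb upstream, had 4.94 and 5.36 CPM in cDCs, and 9.23 and 3.22 CPM in the 2 pDC libraries, which lay on either side of the cDC values. Both called sites lost their calls without cDC replicate 1 (1.62 and 1.93), cDC replicate 2 (1.01 and 1.85) or pDC replicate 1 (0.79 and 1.71), and with windows summed per site (1.12 and 1.56). The called site inside the gene also lost its call with library-size scaling (1.07).

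Il15 (gene ID 16168, chromosome 8, 82331624 to 82403252) encodes a cytokine that dendritic cells display to NK cells and memory T cells. Its locus held 127 and 132 CPM in cDCs versus 124 and 131 in pDCs (log2 fold -0.02 ± 0.13, edgeR adjusted p = 0.948). The groups overlapped, while the 2 highest sites leaned in opposite directions. The one inside the gene (82383301 to 82383610) had 13.9 and 13.3 CPM in cDCs versus 20.4 and 17.5 in pDCs at its highest window, where the groups did not overlap. It was not called (0.50 ± 0.23 at its window of smallest p, edgeR adjusted p = 0.344). The one 13.6 kb beyond the higher-coordinate end of the span (82416701 to 82416960) had 10.2 and 9.07 CPM in cDCs versus 4.62 and 6.60 in pDCs at its highest window (-0.79 ± 0.27). It was called higher in cDCs (-0.98 ± 0.29 at its window of smallest p, edgeR adjusted p = 0.0480). That call ended without cDC replicate 1 (-1.0), cDC replicate 2 (-1.07) or pDC replicate 1 (-0.79).

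Il10 (gene ID 16153, chromosome 1, 131019845 to 131024970) and Tgfb1 (gene ID 21803, chromosome 7, 25687002 to 25705077) encode cytokines that restrain immune responses. Per kb, Tgfb1 had the highest signal of the 10 loci and Il10 the lowest but for Il23a. Il10 held 24.4 and 29.9 CPM in cDCs versus 26.2 and 29.9 in pDCs, with a site inside the gene (131021001 to 131021260) as the highest of 3, at 4.39 and 3.71 CPM in cDCs versus 4.09 and 5.95 in pDCs. Tgfb1 held 363 and 345 CPM in cDCs versus 430 and 338 in pDCs. Neither locus was called (log2 folds of 0.05 ± 0.23 and 0.12 ± 0.12, edgeR adjusted p = 0.924 and 0.560). The site 1.88 kb downstream of Tgfb1 (25706751 to 25707210) was the highest of all 63, with 35.5 and 30.8 CPM in cDCs and 39.6 and 30.2 CPM in pDCs from 388, 356, 300 and 188 counts, against 1 count in the input. Its log2 fold at the highest window was 0.08 ± 0.23. The widest of the 63 sites, 1210 bp in the span of B9d2, lay 5.85 kb upstream of Tgfb1, with 10.4 and 9.16 CPM in cDCs versus 7.91 and 10.3 in pDCs. Of the 6 Tgfb1 sites edgeR called 0, with 0 at an unadjusted p below 0.05 and 0 by DESeq2, and of the 3 Il10 sites it called 0, with 0 and 0. Without pDC replicate 2 the Tgfb1 locus (0.28) and its site 3.25 kb upstream (0.85) were called higher in pDCs, in a fit that holds no spread between pDC libraries.

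**Figure D4:**
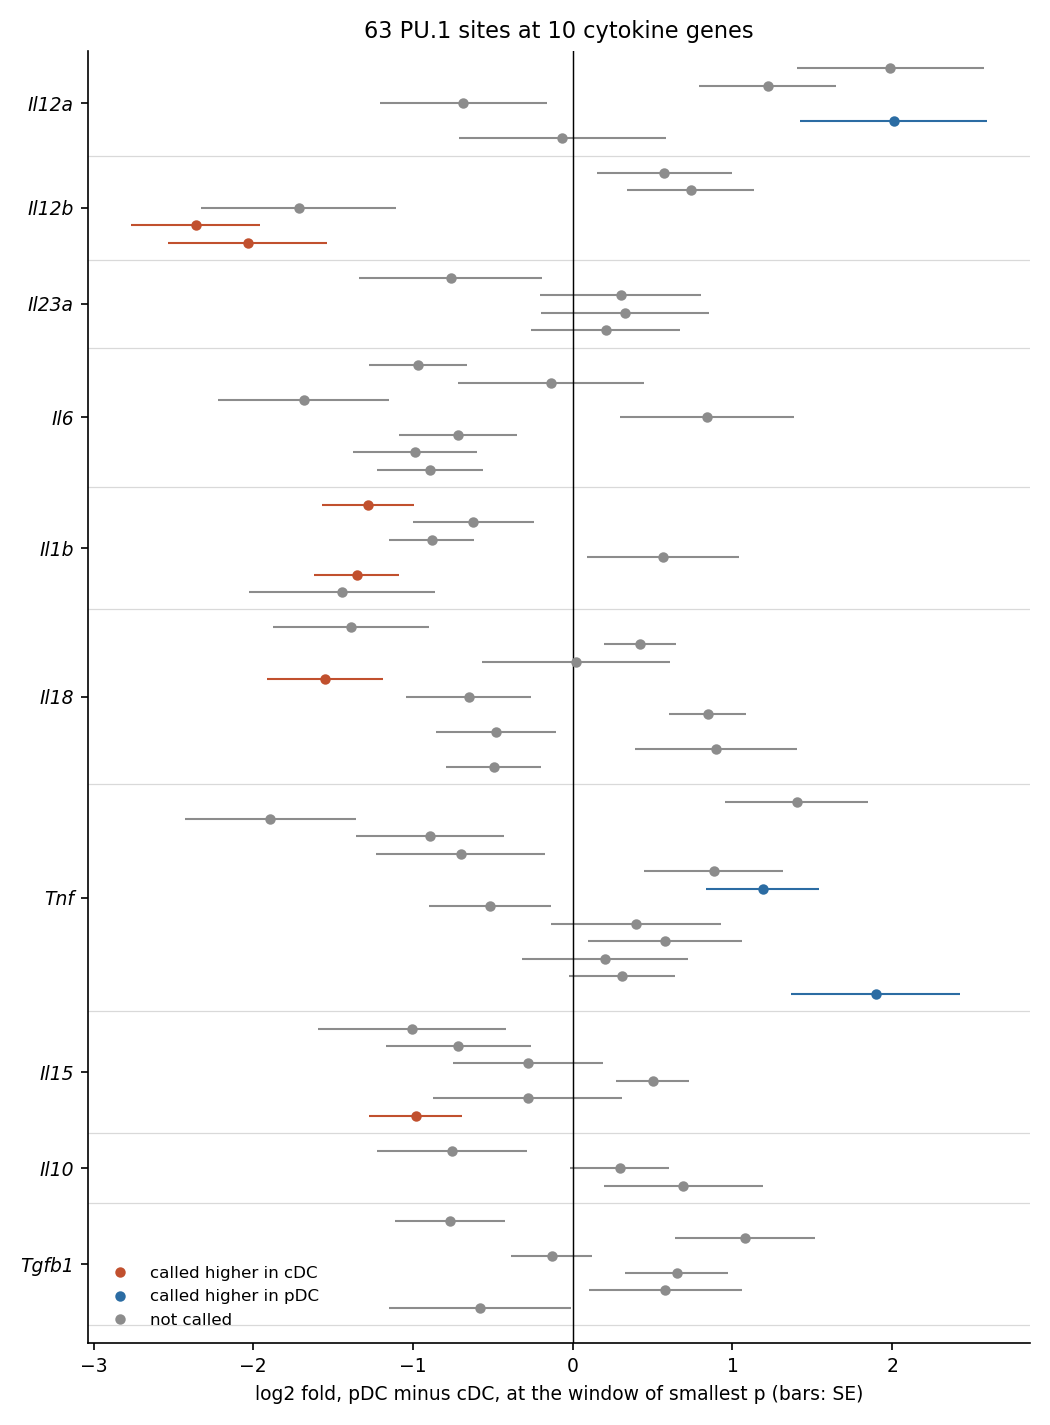
Log2 fold (pDC minus cDC) with its SE at the window of smallest p for each of the 63 sites, in order of position within each gene, n = 2 libraries per cell type. Il6 and Il1b have most of their sites left of 0 (6 of 7 and 5 of 6), Il12b has 3 left and 2 right, and 8 of the 12 Tnf sites lie to the right.

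At the highest window, the cDC and pDC libraries did not overlap in 33 of the 63 sites. In 19 of these cDCs were higher (28.4% of all sites do this) and in 14 pDCs were (29.0% of all). The window of smallest p had a log2 fold below 0 in 35 sites and above 0 in 28, with a median of -0.28 against 0.12 over all sites. Since the sign of 1 window per site was taken, these counts describe direction and not size.

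Other cytokine genes were read from a separate list of 36, of which 32 had tested windows. The pDC side had 6 of these loci and the cDC side 1, leaving 25 uncalled, beside 11.0% and 7.87% of all gene loci, and the median log2 fold was 0.16. The 1 higher in cDCs was Il1a, the neighbour of Il1b in the genome, which encodes interleukin-1 alpha: 134 and 131 CPM in cDCs versus 87.3 and 80.8 in pDCs (log2 fold -0.66 ± 0.14, edgeR adjusted p = 0.00382). The loci of Il1a and Il1b share no windows, whereas Il3 and Csf2 had identical values, as did Il19 and Il20, so the 32 loci are not all distinct. Those of Lta and Ltb, neither of them called, overlap the Tnf locus described above. The largest difference was at Il24, a cytokine gene of the IL-10 family, with 18.7 and 25.2 CPM in cDCs versus 121 and 78.0 in pDCs (2.18 ± 0.22, edgeR adjusted p = 2.22e-05). Il34, which encodes a ligand of the Csf1 receptor, lay at 1.27 ± 0.21, Osm, the oncostatin M gene, at 0.83 ± 0.14, and Lif, the leukaemia inhibitory factor gene, at 0.84 ± 0.15, with edgeR adjusted p of 0.000730, 0.000752 and 0.00111. Il27 and Ebi3, whose products form IL-27, were not called, at -0.09 ± 0.13 and 0.22 ± 0.18.

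Of 22 genes for the processing, release and mRNA decay of cytokines, the pDC side had 1 locus and the cDC side 3, leaving 18 uncalled, with a median log2 fold of 0.08. On the cDC side stood the inflammasome sensors Aim2 (-0.45 ± 0.13, edgeR adjusted p = 0.0190) and Nlrp3 (-0.41 ± 0.14, 0.0454), and Lrrc32, which encodes a surface anchor of latent TGF-beta (-0.51 ± 0.14, 0.0149). On the pDC side stood Rhbdf2, whose product carries the TNF-releasing protease ADAM17 to the cell surface (0.61 ± 0.17, 0.0168). The inflammasome sensor Nlrc4 (0.10 ± 0.12), Casp1 itself (0.06 ± 0.44) and Adam17 (0.03 ± 0.19) were not called. Beside 18.9% of all loci called, the lists had 7 of 32 and 4 of 22 called.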

How the data were processed

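PU.1 ChIP-seq libraries of cDCs and pDCs, 2 replicates each, and 1 cDC input were analysed. The deposited values are raw read counts per window. Subread 1.4.4 and build mm10 are named, per the submitters' processing notes. What Subread did, how reads were extended and how windows were chosen is not given. Windows are 10 bp wide on a 50 bp grid, and every listed window sums to at least 33 counts across the 5 libraries, which leaves windows without signal unlisted. A read can count in several windows, and sequencing depth is unknown.

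The members and gene lists were chosen with earlier results of these data known. Windows passing filterByExpr at a minimum count of 10 (286435) were tested with edgeR 4.0.16 (R 4.3.3, limma 3.58.1), quasi-likelihood test, TMM factors, cell type as the term and Benjamini-Hochberg adjustment. CPM is computed by edgeR from the TMM-adjusted totals over tested windows. Loci are sums of tested windows over gene spans of RefSeq GRCm38.p6 with 20 kb flanks (GenomicRanges 1.54.1). Sites join windows at most 100 bp apart, split at 5000 bp, with window p-values combined by the Simes method. The fold of a site is that of its window of smallest p. SEs follow from the F statistic. The input fit used all 5 libraries with totals as library sizes, and the input was assumed to vary like the others. Scripts were tested on simulated data. DESeq2 1.42.0 was an alternative.

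All members were named. At each, the highest site, the site of smallest p and called sites were described, other sites being named after their values were seen. Of each list, up to 5 called genes of smallest p were named, and further list genes after their values were seen. With 2 libraries against 2, an exact permutation test of 1 value cannot go below p = 0.333, so none was run. P-values set each difference against the spread between these replicates, which edgeR estimates with information shared across all loci or windows.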

Additional observations from a re-analysis of the deposited data

How the results depend on the processing

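Of the 10 loci 4 were called, and 3 remained in number with library-size scaling, 4 without a filter, 3 at a mean of at least 30 counts, 4 by DESeq2 and 4 by nearest gene. The count was 0 with repeat-window scaling, 0 against a minimum fold of 1.5, 0 on gene spans alone and 2 with flanks of 10 kb, and it lay between 0 and 5 over fits without 1 library. Gene spans alone gave no value at Il12a, Il12b and Il23a, which hold no tested window there, and Il23a had none above that mean of 30. The number of called sites, 9 of 63, was 1 against a minimum fold of 1.5 (6.97% of all sites) and 1 by DESeq2 (3.11%). It lay between 6 and 10 under library-size scaling (15.3%), repeat-window scaling (8.06%), no filter (14.1%) and a mean of at least 30 counts (21.7%). The same range held for joining at 50 bp (14.4%) or 500 bp (15.4%) and for summed windows (14.6%). Without 1 library, only the site just downstream of Il12b kept its call in every fit. Sites above input, 25 in cDCs and 21 in pDCs, became 63 and 57 with repeat-window scaling, beside 97.4% and 91.4% of all sites. They stayed at 25 and 21 at a 4-fold minimum, and lay between 23 and 26 in cDCs and 25 and 26 in pDCs without 1 library.

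Repeat-window scaling moved the median log2 fold of all loci to -0.46, and library-size scaling moved it to -0.08. Among the PU.1 libraries, pDC replicate 2 had the largest share of repeat windows, and the part of that share in the shifts was not tested. Under those shifts, uncalled loci changed sign with library-size scaling (Il10 -0.084, Il18 -0.056, Il23a -0.10, Tnf -0.075, Tgfb1 -0.0051) and with repeat-window scaling (Il10 -0.52, Il18 -0.44, Il23a -0.58, Tnf -0.43, Tgfb1 -0.35). Others were Il15 at 0.031 and Tnf at -0.12 at a mean of at least 30 counts, Il23a at -0.008 and Tnf at -0.0022 by DESeq2, Il15 at 0.23 and Tgfb1 at -0.058 on gene spans, and Il15 at 0.23 with 10 kb flanks. Uncalled sites that changed sign were those inside Il10 (-0.34 and -0.88 with library-size and repeat-window scaling), in Pan2 by Il23a (-0.21 and -0.70) and 17.0 kb upstream of Tnf (-0.43 and -0.79), and with repeat-window scaling alone those inside Il15 (-0.32), 6.60 kb upstream of Il18 (-0.85) and 1.88 kb downstream of Tgfb1 (-0.69). Without 1 library, log2 folds spanned 0 at the loci of Il10 (-0.10 to 0.20), Il15 (-0.064 to 0.025), Il18 (-0.0048 to 0.14), Il23a (-0.33 to 0.32), Tnf (-0.13 to 0.21) and Tgfb1 (-0.067 to 0.28). They also spanned 0 at the sites inside Il10 (-0.93 to 1.24), in Pan2 (-0.60 to 0.64), 17.0 kb upstream of Tnf (-1.06 to 0.84) and 1.88 kb downstream of Tgfb1 (-0.31 to 0.67). The cause of these changes was not tested. Of 136 locus values 85 kept direction and call, 23 lost a call, 2 gained one and 26 changed sign, and of 236 values of named sites the numbers were 172, 42, 6 and 16.

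Equal replicate numbers are not said to pair the libraries, and same-numbered libraries deviated with a correlation of 0.0152. With the replicate block 4 loci (20.7% of all loci) and 11 sites (16% of all sites) were called. Leaving out 1 library left a lone sample that was assumed to vary like the other group. A site's window of smallest p was chosen anew in each fit.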
